A study of Caenorhabditis elegans with 16 samples.

Results

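The 2 untreated populations of a tunicamycin study in Caenorhabditis elegans, EMBRYO CNT and L4 CNT, were compared with each other. They were chosen by their labels as the 8 libraries that received no tunicamycin, of 16 in the series, with 4 libraries in each group. All worms were wild-type N2 grown at 20 °C on nematode growth medium from eggs obtained by bleaching, and none carried a mutation or transgene. The labelled protocol, worded for the drug, places eggs of the EMBRYO groups for 24 h in S medium, a liquid culture medium, before they are moved to plates and raised to adulthood. Worms of the L4 groups grew on plates up to L4, the last larval stage, and were in S medium for 24 h only then. What the controls received in place of the drug is not stated. Each library is RNA from 1 plate, so p-values measure the spread between plates. The exact stage at collection is uncertain. By the labels both populations were grown to adulthood, and the study states that it profiled Day 1 adults. The authors' headings for the group means, however, read L1_Ctrl for EMBRYO CNT and D1_Ctrl for L4 CNT. L1 is also the name of the first larval stage. A difference in stage at collection and an effect of when the worms were in liquid cannot be told apart in any result below. The study itself compared each control with its tunicamycin group, and the 2 controls set against each other show how the untreated worms themselves differed.

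The authors deposited FPKM values (fragments per kilobase of gene length and unit of sequencing depth) of 46589 genes. Differences are given as the mean log2(FPKM + 1) of EMBRYO CNT minus that of L4 CNT, so a positive value is higher in EMBRYO CNT. Reads on genes numbered 14214146 to 18201046 per library in EMBRYO CNT and 12361026 to 26922902 in L4 CNT. Correlations of log2(FPKM + 1) between libraries, over genes, were 0.971 to 0.978 within EMBRYO CNT, 0.982 to 0.994 within L4 CNT and 0.828 to 0.858 between the groups. L4 CNT replicate 2 stood apart from the other 3 libraries of its group. It had the fewest reads and the largest share of FPKM on the mitochondrial genome, 2.89% against 1.49 to 1.53%, and its cuticle collagens were low. Counts are also given without it where they moved by over 1.5 times and for the meiosis and col lists. The labelled adult stage was checked against defining genes. Col-19, a collagen of the adult cuticle, stood at 935, 1037, 1122 and 1197 FPKM in EMBRYO CNT and at 1004, 430.3, 1000.4 and 1076 FPKM in L4 CNT, replicates 1 to 4. Yolk, oocyte and eggshell genes were likewise expressed in all 8 libraries, at values given below. The 5 genes of early embryos that were checked, since adults can carry embryos in the uterus, were at most 1.03 FPKM. Med-1 was at 0 in all 8 libraries and end-1 was at most 0.175 FPKM. Tbx-37 was at 0.541 to 1.03 FPKM in EMBRYO CNT and 0 to 0.301 FPKM in L4 CNT, pes-10 at 0.392 to 0.646 and 0.109 to 0.202 FPKM, and end-3 at 0.0727 to 0.197 and 0.276 to 0.790 FPKM, so that these 3 did not overlap between groups but differed in direction. Both groups carried adult transcripts, while EMBRYO CNT also carried many that are best known from larvae and dauers. Read as the first larval stage, the heading L1 is at odds with the adult transcripts of EMBRYO CNT. The exact age of that group was not tested.

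An adult hermaphrodite holds a large germline that makes oocytes, and its intestine secretes vitellogenins, the yolk proteins that oocytes take up. The worm's outer layer is a collagen cuticle that the epidermis rebuilds at each larval moult, with collagens that differ between stages. Development through the larval stages is timed by heterochronic genes, among them lin-14, and under crowding or lack of food a larva can enter dauer, a resistant stage with its own cuticle and stress proteins. In RNA from whole worms, fewer cells of a type and less RNA per cell cannot be told apart.

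Of 14221 genes with a mean of at least 1 FPKM over the 8 libraries, 3713 (26.1%) were higher in EMBRYO CNT and 2060 (14.5%) were higher in L4 CNT, called at a log2 difference beyond 1 and a Benjamini-Hochberg adjusted p under 0.05 in limma. Without L4 CNT replicate 2 the counts were 3795 and 1995. The 2 groups separated along the first principal component, which held 86.6% of the variance. The balance of the 2 directions depended on the scaling. EMBRYO CNT and L4 CNT counts were 3267 and 2744 after median-ratio rescaling, and 4965 and 1342 after rescaling to TPM (FPKM rescaled to a fixed sum). The median difference of all genes was 0.08 as deposited, -0.07 after median-ratio rescaling and 0.36 as TPM. No called gene changed direction in either rescaling. In all, 40.6% of tested genes were called. By adjusted p alone, 43.2% were higher in EMBRYO CNT and 40.1% in L4 CNT, and for 78.4% of genes the values of the 2 groups did not overlap, so both criteria were used throughout. The median of all genes, 0.08, and the shares of 26.1% and 14.5% are the values against which the gene lists below are read. A gene expressed in a single group can pass the filter on that group alone, so every share below describes tested members only.

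**Figure D1:**
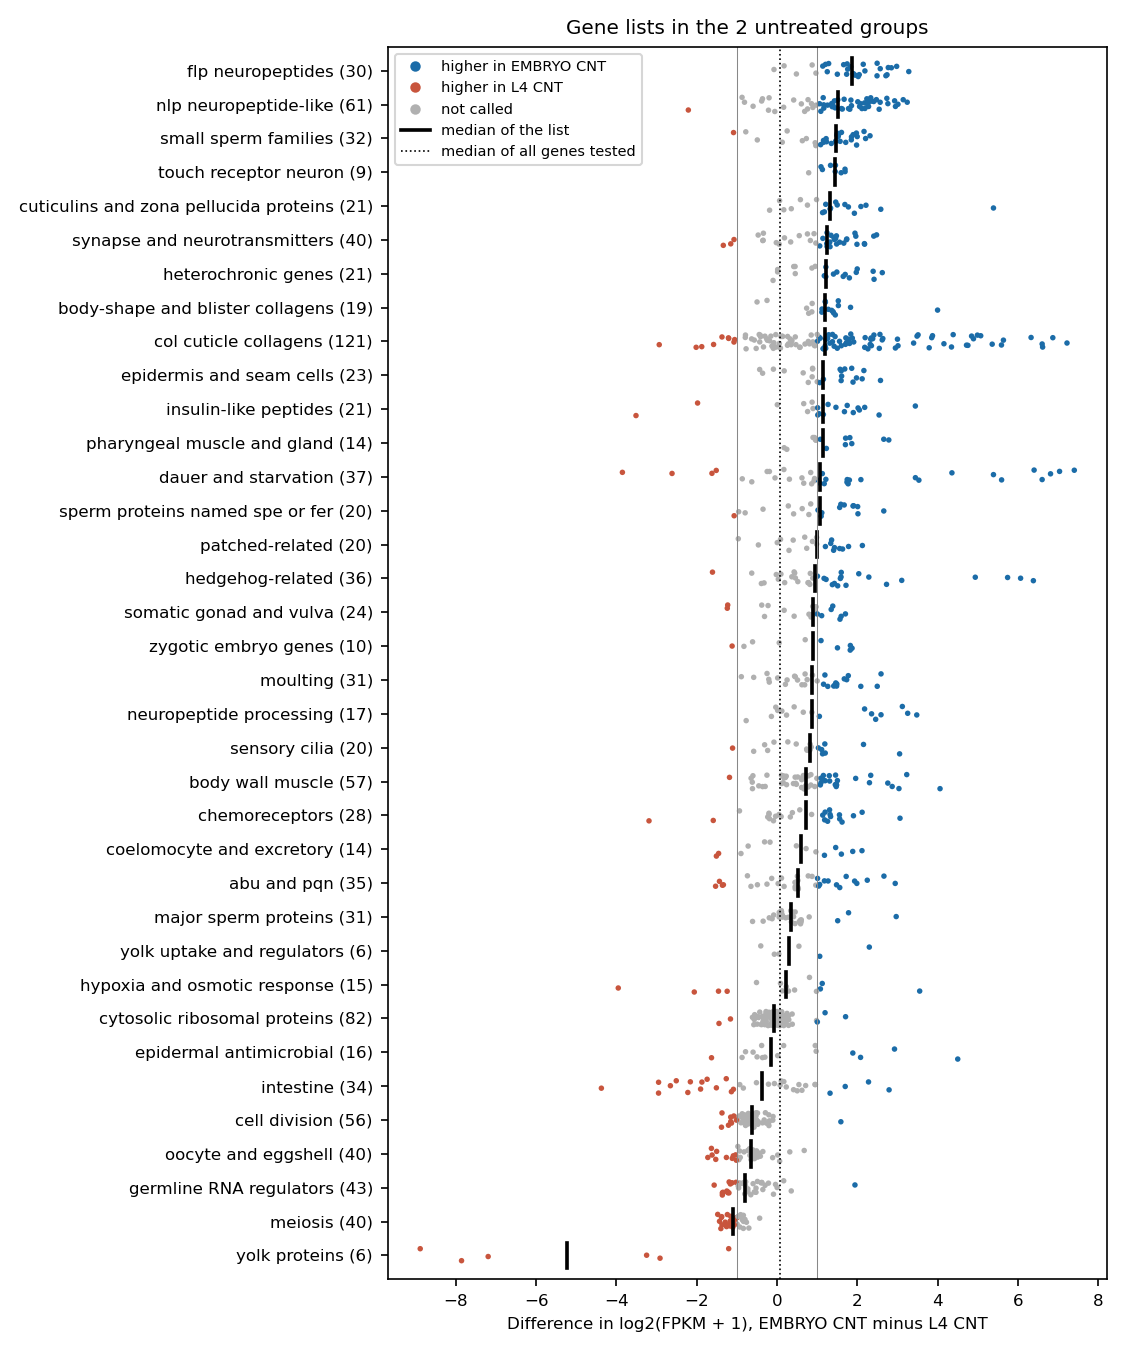
Differences in log2(FPKM + 1) between EMBRYO CNT and L4 CNT (x axis) for the tested members of 36 gene lists (y axis, number of members tested in brackets), 1 point per gene, with grey vertical lines at the thresholds of 1 and -1. Lists of neuropeptides, cuticle and hedgehog-related genes lie to the right, and yolk, meiosis and germline lists to the left, with yolk proteins at a median of -5.22.

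The 10 genes highest in EMBRYO CNT relative to L4 CNT, among called genes with no overlap between groups, were W02D7.11, clx-1, col-36, dao-6, col-43, hsp-12.6, col-40, col-2, mtl-1 and grl-20. They comprise 4 cuticle collagens, a metallothionein (mtl-1), a small heat shock protein (hsp-12.6) and a hedgehog-related gene (grl-20). The first of them, W02D7.11 (chromosome V, 8302887 to 8304469), stood at 349.8, 292, 322 and 331 FPKM in EMBRYO CNT and at 0, 0.312, 0 and 0.412 FPKM in L4 CNT, where it had 3 reads in all. Its log2 difference was 8.12 (adjusted p = 8.4e-11 by limma, SE 0.12). The 10 genes at the other end were vit-4, vit-3, vit-1, dod-23, lys-10, ilys-5, 21ur-8714, pho-1, acox-1.5 and F54D5.4. Besides 3 vitellogenins they include lys-10 and ilys-5, of 2 lysozyme families, acox-1.5, an acyl-CoA oxidase, and pho-1, an intestinal acid phosphatase. Dod-23 was at 24.9, 20.4, 21.3 and 21.6 FPKM in EMBRYO CNT against 733, 786, 724 and 699.5 FPKM in L4 CNT. The piRNA gene 21ur-8714 is 21 bases long and had only 1 read in EMBRYO CNT and 48 reads in L4 CNT.

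The yolk genes had the widest median difference of the 36 lists. All 6 vitellogenins were higher in L4 CNT, with a median difference of -5.22, and their summed FPKM was 3679 to 5613 in EMBRYO CNT and 19651 to 23421 in L4 CNT. Vit-4 (F59D8.2, chromosome X, 3558839 to 3563974 as the deposited table gives it) stood at 2.05, 1.47, 0.972 and 1.22 FPKM in EMBRYO CNT and at 1176, 1085, 1013 and 1276 FPKM in L4 CNT. Its neighbour vit-3 (chromosome X, 3567397 to 3572549) was at 5.86, 3.34, 2.88 and 3.41 FPKM and 1083, 1142, 991 and 1199 FPKM. Vit-1 was at 6.14, 3.81, 3.21 and 3.71 FPKM against 763, 723, 707 and 799.8 FPKM. In these 3 genes every L4 CNT library was more than 100 times any EMBRYO CNT library, with log2 differences of -8.89, -7.86 and -7.19. The other 3 vitellogenins were abundant in both groups. Vit-2 was at 3001 ± 476 FPKM (SD, n = 4) in EMBRYO CNT and 6882 ± 678 FPKM in L4 CNT, a log2 difference of -1.2 (adjusted p = 1.1e-05 by limma, SE 0.13). Next in abundance, vit-5 was at 554 ± 141 and 5169 ± 308 FPKM, and vit-6 at 852 ± 225 and 6317 ± 755 FPKM. EMBRYO CNT replicate 1 had the highest value of its group for all 6 genes, and the groups did not overlap for any of them. Vit-3 and vit-4 are similar copies, as are other vitellogenins, and reads may be split or dropped between them by the counting. The genes of yolk uptake and control did not follow. Of 6 tested, none was higher in L4 CNT. Rme-2, the yolk receptor of oocytes, was at 185 ± 33.6 FPKM in EMBRYO CNT and 243 ± 13.3 FPKM in L4 CNT, a log2 difference of -0.41 (adjusted p = 0.00951 by limma, SE 0.12). Pqm-1, a zinc finger transcription factor of the intestine, had means of 58.8 and 57 FPKM. Unc-62, a homeodomain factor needed for vitellogenin expression, and lrp-2, a receptor of the LDL receptor family, were higher in EMBRYO CNT, with log2 differences of 1.06 and 2.30.

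**Figure D2:**
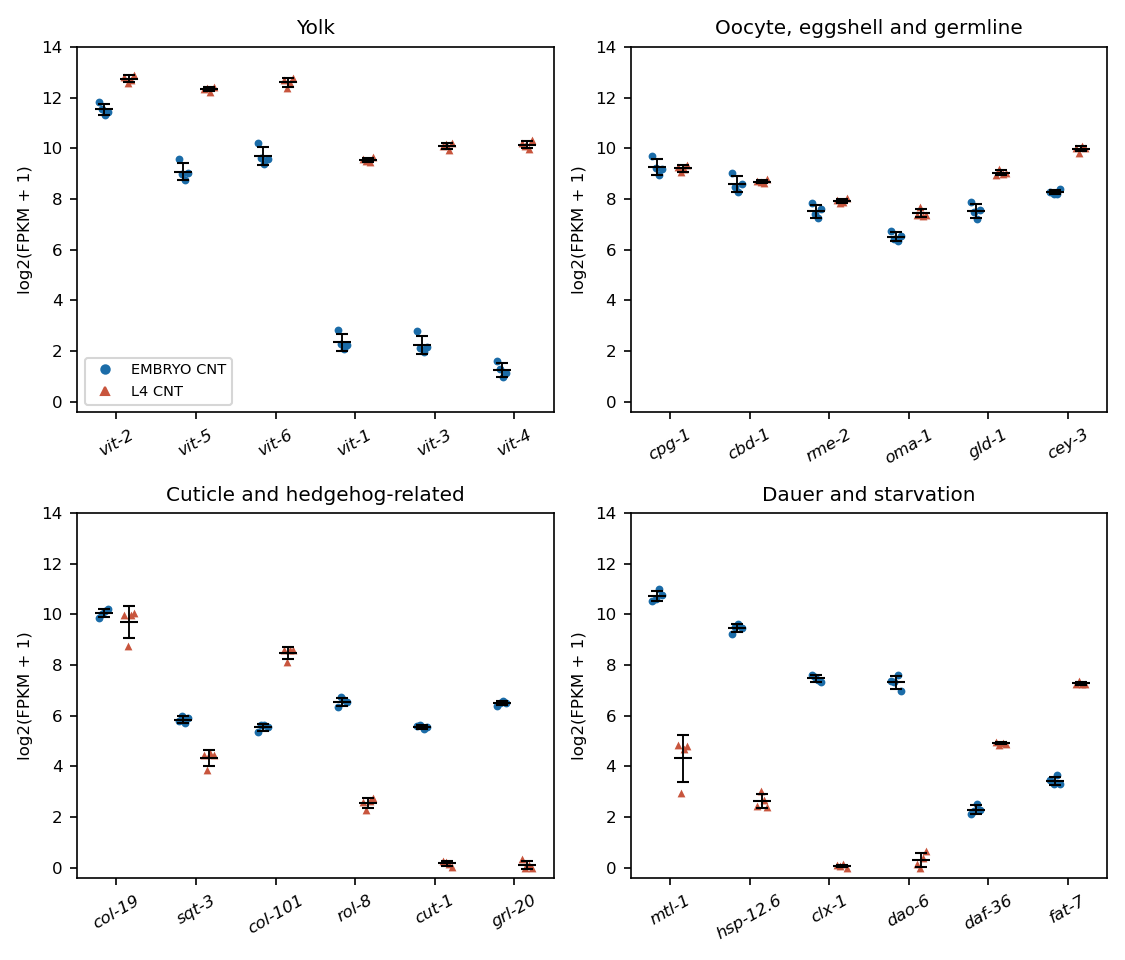
Log2(FPKM + 1) (y axis) of 24 genes in the 4 EMBRYO CNT libraries (circles) and the 4 L4 CNT libraries (triangles), with the mean and the SD of the 4 in black. Vit-1, vit-3 and vit-4 are low in EMBRYO CNT alone. For cpg-1, cbd-1 and rme-2 the groups lie close together, while oma-1, gld-1 and cey-3 lie higher in L4 CNT. Cut-1, grl-20, clx-1 and dao-6 are close to 0 in L4 CNT.

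Germline genes that passed the test were nearly all higher in L4 CNT, by smaller differences. Meiosis, the division that makes gametes, had 27 of 40 genes higher in L4 CNT (67.5% against 14.5% of all genes), none higher in EMBRYO CNT, and all 40 differences were negative, from -1.48 to -0.43 around a median of -1.1. Zhp-3, a RING finger protein of crossover sites, was at 16.1, 15.2, 15.4 and 15.8 FPKM in EMBRYO CNT and 43.2, 57.6, 40.8 and 41.6 FPKM in L4 CNT. Him-8, which pairs the X chromosomes, was at 25.4, 23.9, 24.5 and 27.5 FPKM and 65.9, 88.2, 63.1 and 65.4 FPKM. For both the groups did not overlap, and L4 CNT replicate 2 was the highest library. Without that library 22 meiosis genes were called, and 12 were after rescaling to TPM. Him-3 and htp-1, proteins of the chromosome axis, were the most abundant of the list and had log2 differences of -0.97 and -1.17, of which the former was within the threshold.

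Of 43 germline RNA regulators, 12 were higher in L4 CNT (27.9% against 14.5% of all genes) and 1 in EMBRYO CNT (2.33% against 26.1%). The L4 CNT count was 9 as TPM and 18 after median-ratio rescaling. Gld-1, a translational repressor of the meiotic germline, was at 232, 176, 146 and 189 FPKM in EMBRYO CNT and 496, 577, 502 and 516 FPKM in L4 CNT, a log2 difference of -1.50 (adjusted p = 2.3e-06 by limma, SE 0.13). Glh-1 and glh-3, RNA helicases of germ granules, and fbf-2, a Pumilio protein of germline stem cells, had log2 differences of -1.57, -1.36 and -1.36. Glp-1, the Notch receptor of the germline stem cells, was at 32.9 ± 4.46 and 47.5 ± 1.55 FPKM (log2 difference -0.52), within the threshold. The exception was fog-3, which directs germ cells to become sperm, at 4.11, 3.05, 3.23 and 3.62 FPKM in EMBRYO CNT and 0.120, 0.161, 0.238 and 0.159 FPKM in L4 CNT.

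Among 40 genes of oocytes and the eggshell, 10 were higher in L4 CNT (25% against 14.5% of all genes) and none in EMBRYO CNT. The median was -0.64, and the L4 CNT count was 6 as TPM and 14 after median-ratio rescaling. Cey-3 and cey-2, Y-box RNA-binding proteins of the germline, led the list. Cey-3 was at 307, 293, 296 and 333 FPKM in EMBRYO CNT and 1039, 909.8, 1080.2 and 1045 FPKM in L4 CNT, and cey-2 had means of 624 and 1932 FPKM. Genes of the eggshell itself were unlike one another. Cpg-2, an abundant eggshell proteoglycan, was at 826, 688, 622 and 804 FPKM in EMBRYO CNT and 1205, 1003, 1212 and 1266 FPKM in L4 CNT, without overlap, a log2 difference of -0.68 (adjusted p = 0.000309 by limma, SE 0.11) that was within the threshold. Cpg-1, a proteoglycan of the same kind, was at 839, 595, 498 and 579 FPKM in EMBRYO CNT and 614, 529, 575 and 645 FPKM in L4 CNT, a log2 difference of 0.06 (adjusted p = 0.694 by limma, SE 0.15). Cbd-1, a chitin-binding eggshell protein, had means of 389 and 412 FPKM (adjusted p = 0.477 in limma), and the sign of both differences changed with the scaling. Oma-1, a zinc finger protein of maturing oocytes, was at 91.1 ± 11.4 and 173 ± 20.0 FPKM, a log2 difference of -0.92 and so just within the threshold. Cell division genes had 55 of 56 differences below 0, around a median of -0.62. The 8 called higher in L4 CNT were 14.3% of the list, near the 14.5% of all genes. Their number was 3 as TPM and 13 after median-ratio rescaling. They were led by the B-type cyclins cyb-2.1 and cyb-2.2 and by psf-1, a subunit of the GINS replication complex, at -1.38, -1.21 and -1.37. Cyd-1, the D-type cyclin, went the other way, with means of 10.1 FPKM in EMBRYO CNT and 2.69 FPKM in L4 CNT.

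Sperm genes that passed the test were nearly all higher in EMBRYO CNT, but the share that passed differed between lists. Of 32 tested members of small sperm families (36 in the table), 23 (71.9%) were higher in EMBRYO CNT and 1, ssp-37, in L4 CNT. Of 20 tested spe and fer genes (30 listed), which are named for sterile sperm mutants, 11 (55%) were higher in EMBRYO CNT. In L4 CNT 1 of these was higher, spe-44, or 2 without L4 CNT replicate 4. Of all genes 26.1% were higher in EMBRYO CNT. Spe-46 was at 16.7, 17.9, 18.1 and 20.3 FPKM in EMBRYO CNT and 1.92, 1.8, 1.97 and 2.54 FPKM in L4 CNT. Spe-11, a sperm protein needed by the embryo, had means of 23.1 and 4.97 FPKM, and htas-1, a sperm histone of the H2A kind, 26.3 and 5.16 FPKM. Major sperm proteins, the cytoskeletal proteins of crawling sperm, differed less. Only 3 of 31 tested were called, msp-42, msp-71 and msp-74, all higher in EMBRYO CNT. That share, 9.68%, was below the 26.1% of all genes. The list's median was 0.34, or 0.20 without L4 CNT replicate 2. The abundant msp-57 was at 66.9 ± 8.27 and 38.7 ± 8.98 FPKM (log2 difference 0.80) and msp-31 at 41.8 ± 4.96 and 45.6 ± 5.58 FPKM. The msp genes and the small families are close copies of one another, so the split of reads among them is uncertain. Fog-3, given above, points the same way as the sperm lists, while spe-44, a transcription factor of spermatogenesis, had means of 6.03 FPKM in EMBRYO CNT and 13.8 FPKM in L4 CNT.

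Cuticle genes were mostly higher in EMBRYO CNT. Of 121 tested col genes (159 in the table), 66 were higher in EMBRYO CNT and 9 in L4 CNT, or 54.5% and 7.44% of those tested. A gene expressed in a single group passes the filter on its high group alone, so these shares describe the tested members only. Without L4 CNT replicate 2 the counts were 62 and 9 of the col genes, and the median difference was 0.96 in place of 1.2. The summed FPKM of the col genes was 20517 to 24578 in EMBRYO CNT and 18214 to 19502 in L4 CNT replicates 1, 3 and 4, but 10436 in replicate 2. Col-36 was at 151, 184, 176 and 172 FPKM in EMBRYO CNT and 0.178, 0.0714, 0.158 and 0.189 FPKM in L4 CNT. Col-43 had 174 ± 11.1 FPKM (SD, n = 4) against 0.531 ± 0.343 FPKM, col-40 114 ± 20.6 against 0.169 ± 0.117 FPKM, and col-2, a collagen known from dauer larvae, 116.3 ± 14.8 against 0.205 ± 0.120 FPKM. In L4 CNT these 4 collagens together had fewer than 100 reads. The most abundant collagens differed far less. Col-119 was at 3255, 3427, 3305 and 3675 FPKM in EMBRYO CNT and 2152, 1093, 2087 and 2329 FPKM in L4 CNT, and col-140 had a log2 difference of 0.45 (adjusted p = 0.0221 by limma, SE 0.16). The adult collagen col-19, whose values stand above, had a log2 difference of 0.37 (adjusted p = 0.215 by limma, SE 0.26). In the other direction, col-101 was at 39.8, 48.4, 48.5 and 46 FPKM in EMBRYO CNT and 382, 276, 391 and 384 FPKM in L4 CNT, and col-179 and col-135 had log2 differences of -2.02 and -1.88. The stage of these 3 collagens is not given in the files.

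Body-shape collagens are named for mutants with short, blistered or rolling bodies. Of 19 tested, 13 (68.4% against 26.1% of all genes) were higher in EMBRYO CNT and none in L4 CNT. Rol-8 led with 79.8, 105, 98 and 91.9 FPKM in EMBRYO CNT and 5.04, 3.82, 5.23 and 5.67 FPKM in L4 CNT. Sqt-3 had means of 56.9 and 19.4 FPKM and dpy-14 of 13 and 2.97 FPKM. Dpy-7, at 6.81 and 2.58 FPKM, was called at a log2 difference of 1.11 but not after median-ratio rescaling or without EMBRYO CNT replicate 4, where it was 0.97. Bli-1, a collagen of adult struts, averaged under 1 FPKM in both groups and was not tested. Cuticulins and zona pellucida proteins form the non-collagen matrix of the cuticle. Of 21 tested (41 listed), 14 were higher in EMBRYO CNT (66.7% against 26.1% of all genes) and none in L4 CNT. Cut-1, a cuticulin of the dauer cuticle, was at 47, 48.5, 43.5 and 45.9 FPKM in EMBRYO CNT and 0.192, 0.165, 0.122 and 0.0362 FPKM in L4 CNT, with a log2 difference of 5.39 (adjusted p = 7.14e-11 by limma, SE 0.07). Its EMBRYO CNT libraries lay within 5 FPKM of each other, and in L4 CNT it had 14 reads in all. Cut-5, a larval cuticulin, was at 2.24 ± 0.577 and 0.136 ± 0.0767 FPKM, whereas cut-3 averaged under 1 FPKM in both groups and was not tested.

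Hedgehog-related genes encode secreted proteins of the nematode epidermis. Of 36 tested (61 listed), 18 were higher in EMBRYO CNT (50% against 26.1% of all genes) and 1, grd-5, in L4 CNT. The ground-like genes grl-20, grl-25 and grl-23 were almost confined to EMBRYO CNT in these libraries. Grl-20 was at 82.6, 88.9, 95.2 and 90.6 FPKM in EMBRYO CNT and 0.267, 0, 0.0792 and 0 FPKM in L4 CNT. Grl-25 was at 61.1, 67.8, 68.8 and 80.8 FPKM and 0.0321, 0, 0.0476 and 0.127 FPKM, and grl-23 at 49.7, 61.4, 69.3 and 53.7 FPKM and 0.123, 0.123, 0.0912 and 0.0814 FPKM. In L4 CNT each of them had at most 10 reads over the 4 libraries. Grd-3, one of the most abundant of the list, had means of 91.2 and 64.8 FPKM. Patched-related membrane proteins had 9 of 20 tested members (27 listed) higher in EMBRYO CNT (45% against 26.1% of all genes). Among them were ptc-3, ptr-5 and ptr-23, at 2.12, 1.78 and 1.63. In L4 CNT none was higher, or 1 without EMBRYO CNT replicate 2 or without L4 CNT replicate 1. Ptc-1, which acts in the germline, was level at 117 ± 15.5 and 115.97 ± 2.8 FPKM (log2 difference 0.00, standard error 0.09).

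Genes that carry out or time the moults, where they passed the test, were higher in EMBRYO CNT. Of 31 tested moulting genes, 14 were higher in EMBRYO CNT (45.2% against 26.1% of all genes) and none in L4 CNT. In front were lrp-1, a receptor of the megalin kind, mlt-11, a protease inhibitor-like protein, and peb-1, a DNA-binding protein, at 2.59, 2.49 and 2.08. The other 17 were not called, and the summed FPKM of the list overlapped, at 615 to 677 in EMBRYO CNT and 617 to 625 in L4 CNT. Its most abundant member, let-767, a steroid dehydrogenase-like enzyme, was at 136, 141, 136 and 158 FPKM in EMBRYO CNT and 264, 266, 263 and 266 FPKM in L4 CNT, a log2 difference of -0.89 within the threshold and without overlap. Of 21 heterochronic genes, 13 (61.9% against 26.1% of all genes) were higher in EMBRYO CNT and none in L4 CNT, with a median of 1.21. Sup-26, an RNA-binding protein, had the largest difference of the list, 2.62. Lin-14, which specifies first-stage larval fates, was at 48.6, 42.8, 38.1 and 38 FPKM in EMBRYO CNT and 6.66, 7.12, 7.66 and 7.08 FPKM in L4 CNT, a log2 difference of 2.39 (adjusted p = 1.26e-08 by limma, SE 0.09). Hbl-1, a later-acting zinc finger factor, was at 12.5, 11.2, 8.94 and 9.36 FPKM and 1.97, 2.5, 1.36 and 1.72 FPKM. Lin-42, the worm's Period homologue, which cycles with the moults, was at 16.5, 17.3, 14.8 and 16.8 FPKM and 2.5, 1.39, 2.62 and 2.7 FPKM. All 3 were higher in every EMBRYO CNT library than in any L4 CNT library. Lin-29, which drives the switch to adult epidermis, was also higher in EMBRYO CNT, with means of 4.15 and 1.21 FPKM. By contrast lin-28, an RNA-binding protein of early larvae, had means of 40.9 and 44.2 FPKM (log2 difference -0.10, adjusted p = 0.41 in limma), and lin-41, which acts in larvae and in oocytes, 76.8 and 74.8 FPKM. Markers of the epidermis and its seam cells had 13 of 23 tested members higher in EMBRYO CNT (56.5%) and none in L4 CNT. The junction protein ajm-1 was at 57.6 ± 5.43 and 14.8 ± 0.335 FPKM, and pah-1, the phenylalanine hydroxylase of the epidermis, at 288 ± 10.7 and 65.7 ± 4.86 FPKM.

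Genes linked to dauer and starvation held some of the steepest differences. Of 37 tested, 20 were higher in EMBRYO CNT (54.1% against 26.1% of all genes) and 4 in L4 CNT (10.8% against 14.5%). Clx-1 (C50F7.2, chromosome IV, 7734647 to 7736409) was at 196, 183, 169 and 162 FPKM in EMBRYO CNT and 0.0669, 0.0447, 0.0990 and 0 FPKM in L4 CNT. Dao-6, of the dauer or aging overexpression class, was at 164, 160.2, 196 and 127 FPKM and 0.107, 0, 0.316 and 0.565 FPKM. Each had 7 reads in all of L4 CNT, against 22215 for clx-1 and 4317 for dao-6 in EMBRYO CNT. Hsp-12.6, a small heat shock protein, was at 601, 716, 784 and 701 FPKM in EMBRYO CNT and 4.43, 7.14, 5.44 and 4.28 FPKM in L4 CNT. Mtl-1, a metallothionein and a target of the DAF-16 transcription factor, was at 1469, 1563, 2061 and 1721 FPKM and 27.9, 6.72, 24.8 and 26.9 FPKM. L4 CNT replicate 2 was the lowest library for mtl-1, but no library of the group came within 50-fold of EMBRYO CNT. The members higher in L4 CNT were fat-7, daf-36, ctl-2 and icl-1, the last of which was named after its value was seen. Fat-7, a stearoyl-CoA desaturase that falls in fasted worms, was at 9.9, 8.87, 11.6 and 8.97 FPKM in EMBRYO CNT and 151, 163, 153 and 152 FPKM in L4 CNT. Daf-36, an enzyme of the synthesis of dafachronic acid, a hormone with which larvae bypass dauer, had means of 3.93 and 29.1 FPKM. Daf-7, the TGF-beta ligand of the dauer decision, averaged 1.04 ± 0.103 and 0.219 ± 0.0586 FPKM and was below the filter. The abundant stress protein gene sip-1 had a log2 difference of -0.19 (adjusted p = 0.412 in limma).

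Neuropeptide genes that passed the test were nearly all higher in EMBRYO CNT. The other neuronal lists also had more genes higher in EMBRYO CNT than in L4 CNT, though single neuronal markers differed. FMRFamide-like (flp) neuropeptide genes had 25 of 30 tested members higher in EMBRYO CNT (83.3% against 26.1% of all genes) and none in L4 CNT. Their median, 1.87, was the largest of the 36 lists. Flp-15 was at 147, 185, 197 and 193 FPKM in EMBRYO CNT and 21.2, 14.7, 20.4 and 15.1 FPKM in L4 CNT, and flp-16 and flp-9 had log2 differences of 2.98 and 2.85. The nlp genes, neuropeptide-like proteins, had 43 of 61 (70.5%) higher in EMBRYO CNT and 1, nlp-56, in L4 CNT (2 without L4 CNT replicate 2). Nlp-12, a cholecystokinin-like peptide, was at 191, 199.8, 227 and 195 FPKM in EMBRYO CNT and 21.2, 18.5, 22.3 and 20.4 FPKM in L4 CNT. Nlp-40, which the intestine secretes, was level, with means of 284 and 324 FPKM (log2 difference -0.20). The enzymes and vesicle proteins of peptide processing were either higher in EMBRYO CNT or not called. Egl-3, the main prohormone convertase, was at 206, 213, 182 and 202 FPKM in EMBRYO CNT and 20.3, 20.0, 20.5 and 19.7 FPKM in L4 CNT, a 9.97-fold difference between means. Ida-1, a dense core vesicle protein, and pghm-1, a peptide amidating enzyme, had log2 differences of 3.48 and 3.12, while unc-108, a RAB-2 GTPase used in many cell types, had 0.12. In all, 8 of 17 processing genes (47.1%) were higher in EMBRYO CNT and none in L4 CNT.

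Of 40 synapse and neurotransmitter genes, 24 were higher in EMBRYO CNT (60% against 26.1% of all genes) and 3 in L4 CNT (7.5% against 14.5%). The summed FPKM of the list overlapped, however, at 688 to 710.1 in EMBRYO CNT and 690.0 to 753 in L4 CNT. Unc-31, which primes dense core vesicles, was at 8.19, 7.06, 6.52 and 6.31 FPKM in EMBRYO CNT and 0.781, 0.637, 0.780 and 0.864 FPKM in L4 CNT. Unc-86, a POU homeodomain factor of many neuron types, and unc-2, a presynaptic calcium channel, had log2 differences of 2.48 and 2.41. Markers of all neurons did not move together. Rgef-1 had means of 3.3 and 0.616 FPKM, unc-119 of 11.5 and 11.1 FPKM (log2 difference 0.05, adjusted p = 0.633 in limma) and snb-1, synaptobrevin, of 152 and 195 FPKM (log2 difference -0.35, without overlap). The 3 members higher in L4 CNT were tdc-1 and tbh-1, which make tyramine and octopamine in neurons and in gonadal sheath cells, and bas-1, an aromatic amino acid decarboxylase. Tdc-1 was at 44, 39.8, 37.9 and 48.4 FPKM in EMBRYO CNT and 90.2, 90.0, 90.1 and 90.4 FPKM in L4 CNT, and tbh-1 had means of 51.5 and 115.8 FPKM. Inx-8, a gap junction protein of the gonadal sheath, was likewise higher in L4 CNT, at 38.5 ± 3.92 and 92 ± 2.99 FPKM. Touch receptor neuron genes had 8 of 9 members higher in EMBRYO CNT (88.9%), of which 1 remained called with a pseudocount of 5 in place of 1. Mec-4, the touch channel, was at 4.45, 3.82, 4.01 and 4.14 FPKM in EMBRYO CNT and 0.839, 0.605, 0.696 and 0.621 FPKM in L4 CNT, and mec-17, the tubulin acetyltransferase, was within the threshold at 39 and 22.1 FPKM. Sensory cilia genes had 7 of 20 tested members (55 listed; 35% against 26.1% of all genes) higher in EMBRYO CNT and 1, dyf-17, in L4 CNT. Of 1611 chemoreceptor genes in the table only 28 passed the filter. Of these, 13 (46.4%) were higher in EMBRYO CNT and 2 (7.14%) in L4 CNT. Srw-86 had the largest difference among them, at 43.8, 52.2, 45.4 and 44.5 FPKM in EMBRYO CNT and 3.87, 5.37, 4.3 and 5.31 FPKM in L4 CNT, while sri-40 was at 1.98, 1.51, 2.02 and 2.94 FPKM and 28.6, 22.4, 29 and 28.8 FPKM.

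Of 21 tested insulin-like peptides (40 listed), 14 were higher in EMBRYO CNT (66.7% against 26.1% of all genes) and 2 in L4 CNT. With a mean of at least 5 FPKM, 5 were higher in EMBRYO CNT. Members such as ins-2 passed the filter through EMBRYO CNT alone. Ins-2 was at 12.8, 11.4, 14 and 13.1 FPKM in EMBRYO CNT and 0.144, 0.578, 0.427 and 0 FPKM in L4 CNT, and ins-35 and ins-18 had log2 differences of 2.54 and 2.18. The 2 in the other direction were ins-19 and ins-7. Ins-19 was at 0, 0.460, 1.01 and 0.678 FPKM in EMBRYO CNT and 18.9, 15.9, 11.7 and 18.5 FPKM in L4 CNT. Ins-7, an insulin-like agonist, was at 1.62, 1.34, 2.94 and 1.97 FPKM and 9.57, 19, 8.99 and 7.2 FPKM, with L4 CNT replicate 2 the highest.

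Muscle genes that passed the test were nearly all higher in EMBRYO CNT, with the largest differences in long filament proteins. Of 57 tested body wall muscle genes, 22 (38.6% against 26.1% of all genes) were higher in EMBRYO CNT and 1, atn-1, the alpha-actinin of the dense bodies and Z-disc equivalents, in L4 CNT. Myo-3, a myosin heavy chain, was at 175, 152, 128 and 135 FPKM in EMBRYO CNT and 8.06, 7.48, 7.87 and 8.0 FPKM in L4 CNT, an 18.8-fold difference between means and a log2 difference of 4.06 (adjusted p = 9.23e-10 by limma, SE 0.10). Unc-54, the major body wall myosin, was at 1154, 1153, 924 and 959.8 FPKM and 117, 93.3, 113 and 120.3 FPKM. Unc-15, paramyosin, was at 1079.5, 1040.4, 919.7 and 979 FPKM and 146, 146, 146 and 152 FPKM. Every EMBRYO CNT library was over 5 times any L4 CNT library for these 3. Smaller proteins of the same filaments differed less or in the other direction. Mlc-2, a myosin light chain, had means of 1418 and 655 FPKM, and pat-10, the troponin C of body wall muscle, of 877 and 1338 FPKM, a log2 difference of -0.62 (adjusted p = 0.000205 by limma, SE 0.10). In the pharynx, all 14 tested genes had a positive difference and 8 were called (57.1% against 26.1% of all genes). Its myosins myo-2 and myo-1 were at 9.74, 8.58, 6.86 and 7.35 FPKM and 8.41, 7.9, 5.91 and 5.87 FPKM in EMBRYO CNT, and at 0.267 to 0.394 FPKM and 0.215 to 0.290 FPKM in L4 CNT.

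Gene length moved with these results. Among protein-coding genes over 9000 bases, 78.6% of 56 tested were higher in EMBRYO CNT and none in L4 CNT, with a median difference of 1.85. From 6000 to 9000 bases 45.5% of 123 were higher in EMBRYO CNT, with a median of 0.92. Between 1000 and 2000 bases the share was 21.3% of 5440 and the median -0.13. Genes of at most 500 bases, too, had a positive median, 0.54. Of the body wall muscle genes over 3000 bases, 16 of 20 were higher in EMBRYO CNT with a median of 1.47, and of those up to 3000 bases 6 of 37, with a median of 0.48. The synapse list had 10 of 13 long and 14 of 27 shorter genes higher in EMBRYO CNT, and the epidermis list 7 of 10 and 6 of 13. The flp genes, touch receptor genes and col collagens were all at most 3000 bases long. The 6 vitellogenins, each over 3000 bases, and the long germline regulators went the other way, with medians of -5.22 and -0.65. The part of length in the muscle difference was not tested. Among the calls of the same fit, 3357 genes higher in EMBRYO CNT and 1996 genes higher in L4 CNT were at most 3000 bases long. That limit was set after the data were seen, and the shorter genes were not fitted again.

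**Figure D3:**
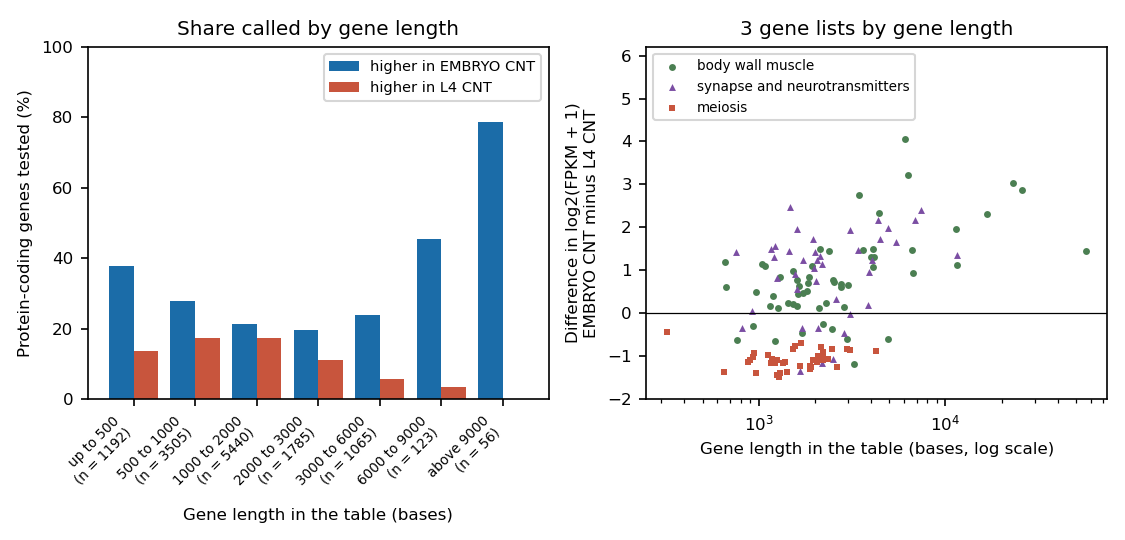
Left, the percentage of tested protein-coding genes called in each direction (y axis) by gene length in bases (x axis), with the number tested under each pair of bars. Right, differences in log2(FPKM + 1) (y axis) against gene length (x axis, log scale) for 3 gene lists, 1 point per gene, where the muscle genes above 2 are all longer than 3000 bases and the meiosis genes lie below 0 at every length.

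Intestinal genes divided. Of 34 tested, 14 were higher in L4 CNT (41.2% against 14.5% of all genes) and 4 in EMBRYO CNT (11.8% against 26.1%). Summed FPKM of the list went the other way, at 12480 to 13577 in EMBRYO CNT and 8817 to 11133 in L4 CNT. Pho-1, an acid phosphatase of the gut, was at 1.62, 2.09, 2.05 and 2.0 FPKM in EMBRYO CNT and 58.2, 69.4, 54.8 and 57.9 FPKM in L4 CNT, a log2 difference of -4.38 (adjusted p = 4.68e-10 by limma, SE 0.09). Daf-22 and acox-1.1, enzymes of peroxisomal beta-oxidation that shorten the side chains of pheromones, were higher in L4 CNT too. Daf-22 was at 34.8, 38.9, 39.3 and 43 FPKM in EMBRYO CNT and 329, 244, 339.5 and 329 FPKM in L4 CNT, and acox-1.1 had means of 13.3 and 109 FPKM. Ges-1, the gut esterase, had means of 15.6 and 34.4 FPKM. The 4 genes higher in EMBRYO CNT were mtl-2, a metallothionein, spp-1, a saposin-like antimicrobial protein, and the gut intermediate filaments ifc-1 and ifb-2. Spp-1 was at 564, 607, 753 and 683 FPKM in EMBRYO CNT and 154, 99.1, 148 and 138 FPKM in L4 CNT. Elt-2, the GATA factor that defines the gut, was at 19.4 ± 1.37 and 13 ± 1.08 FPKM, a log2 difference of 0.54 within the threshold, and asp-3, an aspartic protease, at 1732 ± 49.2 and 1644 ± 78 FPKM. Genes of the coelomocytes and excretory system were split as well, but with more called in EMBRYO CNT. There 5 of 14 were higher (35.7% against 26.1% of all genes), exc-9 among them at 2.11. The excretory canal aquaporin aqp-8 and proton pump subunit vha-8 were higher in L4 CNT (14.3% against 14.5%), at -1.51 and -1.46. Summed FPKM of this list was 359 to 372 in EMBRYO CNT and 624 to 703 in L4 CNT.

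Osmotic and iron genes were few but wide apart. Hmit-1.1, a myo-inositol transporter induced by salt, was at 1.83, 1.47, 1.28 and 1.89 FPKM in EMBRYO CNT and 43, 29.6, 42.5 and 44.6 FPKM in L4 CNT. Gpdh-1 and gpdh-2, which make the osmolyte glycerol, had log2 differences of -2.06 and -1.46. Of the ferritins, ftn-1 was higher in EMBRYO CNT, at 174, 191, 209.5 and 190.1 FPKM against 15.3, 15.8, 15.4 and 14.9 FPKM, and ftn-2 was higher in L4 CNT, at 243 ± 10.7 against 578 ± 34.5 FPKM. Egl-9, the oxygen-sensing prolyl hydroxylase, and smf-3, a metal transporter, were also higher in EMBRYO CNT. This list had 3 of 15 higher in EMBRYO CNT (20% against 26.1% of all genes) and 4 in L4 CNT (26.7% against 14.5%). Its EMBRYO CNT count was 1 after median-ratio rescaling and 5 as TPM. Of 16 tested epidermal antimicrobial peptides (22 listed), 4 were higher in EMBRYO CNT (25%, near the 26.1% of all genes). Higher in L4 CNT was 1, cnc-7, or 2 without L4 CNT replicate 2. Cnc-11 was at 31.7, 37.6, 46.1 and 30.8 FPKM in EMBRYO CNT and 0.660, 0.331, 0.978 and 0.655 FPKM in L4 CNT, whereas nlp-29 was at 27.8, 31.2, 42 and 31.1 FPKM and 75.4, 29.5, 81.6 and 73.7 FPKM, overlapping through L4 CNT replicate 2.

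Ribosomal protein genes stayed close to 0, with a median of -0.08 over 82 genes (0.12 as TPM), but 5 were called. Rpl-11.1 was at 865, 782, 839 and 903 FPKM in EMBRYO CNT and 2499.5, 1876, 2445 and 2476 FPKM in L4 CNT. Its paralogue rpl-11.2 was at 1165, 1283, 1469 and 1461 FPKM and 616, 509.9, 600.4 and 617 FPKM, so the pair went in opposite directions. Rpl-25.1 was higher in EMBRYO CNT and rpl-41.1 in L4 CNT, at 1.71 and -1.16, and rpl-42 was called at low FPKM (1.91 and 0.462). Reads of near-identical copies can be split between them, so these values are uncertain. Of 10 tested genes of the zygotic embryo (26 listed), 5 (50% against 26.1%) were higher in EMBRYO CNT and 1, pal-1, in L4 CNT. The posterior Hox genes php-3 and nob-1 led the former, at 1.87 and 1.82. Pal-1, a caudal homologue stored in oocytes, was at 50.3, 48.7, 46.8 and 46.7 FPKM in EMBRYO CNT and 97.2, 136, 96.9 and 97.4 FPKM in L4 CNT, and without L4 CNT replicate 2 no gene of the list was called higher in L4 CNT. Of 24 somatic gonad and vulva genes, 7 were higher in EMBRYO CNT (29.2%, near the 26.1% of all genes), egl-15, vab-23 and cdh-3 in front. Higher in L4 CNT were 2, inx-8 and lin-3 (8.33% against 14.5%). The abu and pqn genes, with glutamine-rich and asparagine-rich repeats, had 13 of 35 tested (72 listed) higher in EMBRYO CNT (37.1% against 26.1%). In L4 CNT 4 were higher (11.4% against 14.5%).

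By chromosome, genes higher in EMBRYO CNT made up 19% of those tested on chromosome III and 30.8% of those on X, and genes higher in L4 CNT 8.0% of those on X against 13.8 to 17.3% on the autosomes. Of the 15 mitochondrial genes tested, 10 were higher in L4 CNT and none in EMBRYO CNT. That genome took 0.679 to 0.905% of FPKM in EMBRYO CNT and 1.49 to 1.53% in L4 CNT, with 2.89% in L4 CNT replicate 2.

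The tunicamycin groups, 1.25 μg/ml for the same 24 h, are given beside the controls as values only, with no test. Vit-4 averaged 437 FPKM in EMBRYO TM and 1121 FPKM in L4 TM, against 1.43 and 1137 FPKM in the controls. The EMBRYO TM mean spans unlike libraries, with summed yolk FPKM of 6496 in replicate 4 and 16372 to 22386 in the other 3. Clx-1 averaged 0.296 FPKM in EMBRYO TM, against 177 FPKM in EMBRYO CNT, and dao-6 2.06 against 162 FPKM. The cuticle genes did not share that pattern. In EMBRYO TM col-36 averaged 155 FPKM, cut-1 52.5 FPKM and grl-20 77.8 FPKM, against 171, 46.2 and 89.3 FPKM in EMBRYO CNT. Myo-3 averaged 49.8 FPKM and egl-3 71.2 FPKM in EMBRYO TM, between the values of the 2 controls. Summed over its list, flp expression was 421 to 483 FPKM in EMBRYO TM, below the 988 to 1218 FPKM of EMBRYO CNT and above the 279 to 295 FPKM of L4 CNT.

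**Figure D4:**
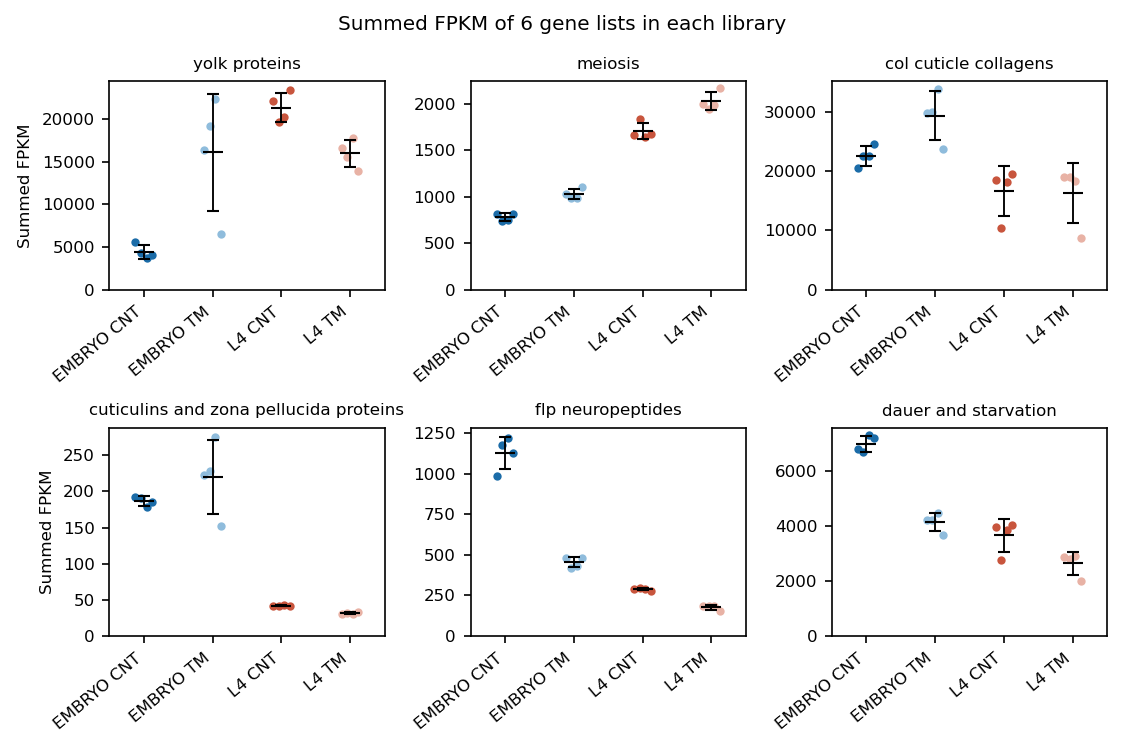
Summed FPKM (y axis, from 0) of 6 gene lists in each library of the 4 groups (x axis), 1 point per library, with the mean and the SD of 4 in black. Cuticulin sums are above 150 in both EMBRYO groups and below 50 in both L4 groups, while yolk sums are under 6000 in EMBRYO CNT alone.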

How the data were processed

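Whole-worm poly-A RNA from 4 plates per group was sequenced. Tools named in the submitters' processing notes include HISAT2 2.0.5, featureCounts 1.5.0-p3 and StringTie 1.3.3b, and no source used here states a genome build. Of the deposited gene intervals compared, 46179 of 46183 overlapped those of the same gene in the WBcel235 annotation. FPKM values, calculated by the authors from reads counted per gene, were used as deposited. The authors' group means and gene annotation in the same table were not tested.

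Genes with a mean of at least 1 FPKM over the 8 control libraries were fitted as log2(FPKM + 1) in limma 3.58.1 (R 4.3.3, empirical Bayes with a mean trend) with 2 groups and no covariate, and p-values were adjusted over all 14221 genes. A gene was called at an absolute log2 difference above 1 and an adjusted p under 0.05. The fold change on this scale understates that of low genes. Whole reads could be recovered from 100% of FPKM values (tolerance 0.01), so reads are given for low genes, and limma-voom on these reads called 4526 and 2257 genes. On simulated data 99.5% of 200 genes changed by a log2 difference of 2 were recovered among 14252. The changed genes had at least 5 FPKM, and all genes shared a single dispersion. In the real data genes from 1 FPKM were tested and far more were called, so this figure gives no error rate for the calls above. The genes named are the 10 largest called differences in each direction without overlap, up to 3 called members with the largest difference per list and direction and 2 of the highest mean FPKM, and a panel of markers. Vit-5 and icl-1 were named outside this rule. The members and the 36 gene lists were chosen with earlier results of these data known, and the chemoreceptor list was corrected after its values were seen, because its name pattern had caught other families. Symbols shared by 1312 rows were replaced by gene IDs, and 19 listed symbols matched no row. Replicate numbers were treated as names, because deviations of same-numbered libraries from their group means were nearly uncorrelated (-0.03 to 0.09).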

Additional observations from a re-analysis of the deposited data

Results flagged for a closer look

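In 24 of 168 tests within groups of 4 libraries, 1 library lay beyond the 95% critical value of Dixon's test, where chance gives about 1 in 20. Of these, 20 concerned L4 CNT replicate 2. Its mitochondrial share of FPKM was 2.89% (others 1.49 to 1.53%). Sums of FPKM over lists were low in it for col collagens (10436, others 18214 to 19502), body-shape collagens (70.3), hedgehog-related genes (163), intestinal genes (8817), dauer and starvation genes (2779), antimicrobial peptides (132), ribosomal proteins (122414) and touch receptor genes (63.6). They were high in it for meiosis (1840.4), spe and fer genes (135.5), zygotic embryo genes (219), somatic gonad and vulva genes (344) and synapse genes (752.5). Among single genes it was low for col-19 (430.3 FPKM), ilys-5 (596 FPKM), sqt-3 (13.5 FPKM) and mtl-1 (6.72 FPKM), and high for oma-1 (203 FPKM) and lys-10 (153 FPKM). In EMBRYO CNT, replicate 1 had a mitochondrial share of 0.679% (others 0.885 to 0.905%) and col-2 at 94.2 FPKM, replicate 3 a summed antimicrobial FPKM of 405.9, and replicate 4 the only 21ur-8714 read of the group, 2.96 FPKM.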

How the results depend on the processing

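Genes higher in EMBRYO CNT numbered 3713 and genes higher in L4 CNT 2060, and no call turned direction in any alternative run. With a pseudocount of 5 the counts were 1395 and 1225, by adjusted p alone 6137 and 5699, with a mean of at least 5 FPKM 1649 in EMBRYO CNT, and as TPM 1342 in L4 CNT. Leaving out 1 library at a time gave 3610 to 3844 and 1995 to 2124. Fitted with the replicate number as a block, the counts were 3744 and 2064. With the pseudocount of 5, the count higher in EMBRYO CNT fell to 1 for touch receptor genes and 2 each for patched-related and gonad and vulva genes. It fell to 6 each for moulting genes and body-shape collagens, 9 for synapse genes and 12 for muscle. With the minimum of 5 FPKM it was 2 each for pharynx and cilia genes and 3 each for spe and fer genes and chemoreceptors. It was 5 each for insulins and cuticulins and 8 for hedgehog-related genes. Members below that minimum left the test, and all 1649 genes called higher in EMBRYO CNT under it were also called in the main run. As TPM the count higher in EMBRYO CNT rose to 17 for gonad and vulva genes, 18 for cilia and 25 for chemoreceptors. Signs changed for some values near 0. The zygotic embryo genes had a median of -0.61 with the 5 FPKM minimum, epidermal antimicrobial genes 0.22 with no filter, 0.16 with the 5 FPKM minimum and 0.0063 as TPM, and cytosolic ribosomal proteins 0.12 as TPM. Under TPM lin-28 was at 0.0889 and cbd-1 at 0.0821, and under median-ratio rescaling cpg-1 was at -0.0856 and unc-119 at -0.0842. Leaving out 1 library gave cpg-1 -0.0844 to 0.17 and unc-119 -0.0078 to 0.13. The calls of rgef-1, lin-29, cut-5, dpy-7 and ges-1 were lost with the pseudocount of 5, and oma-1 was called after median-ratio rescaling. The causes were not tested.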
